A study of Mus musculus with 148 samples.

Results

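The genes described here are 9 identity genes of the lung's alveolar macrophages, Chil3, Car4, Ear1, Ear2, Fabp1, Fabp4, Marco, Krt79 and Plet1, taken by name from the 52634 gene rows of the plate count tables. Their unique molecular identifier (UMI) counts were summed per mouse, tissue and annotated subpopulation wherever at least 5 cells were present, and are given as counts per 1000000 UMIs of that sum (CPM). All 9 were found as rows. They were followed across the macrophage labels (prefix Mac_) and monocyte labels (prefix Mon_), across tissues, and inside the wells labelled Mac_Cd9 alone.

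The study profiled single immune cells by plate-based RNA sequencing, in 63 samples from 27 mice, to chart the immune cells around breast cancer metastases in the lung. All recipients were female C57BL/6 mice carrying photoactivatable GFP (PA-GFP). Tumor-bearing mice had received EO771 mouse breast cancer cells marked with tdTomato in the mammary gland at 8 weeks of age, and in the mice followed for metastasis the primary tumor was resected 3 weeks later. Control lungs (3 samples) came from mice without a tumor, Pre-MET lungs (3) from mice whose primary tumor was still in place, and relapse-free lungs (6) from resected mice in which no metastasis was found. In mice with metastases, distal normal tissue (14) and whole metastases (13) were dissected, and metastasis cores (13) or invasive margins (7) were marked by photoactivation. The remaining 4 samples were primary tumors. Most cells were sorted as CD31-CD45+, or as CD31-GFP+ after photoactivation. Gates and tissues did not match everywhere, since some plates of relapse-free mice 6 and 7 were sorted on photoactivated cells and others on non-photoactivated CD45+ cells, core plates of mouse 17 were sorted on CD45 as well, and the invasive margin of mouse 17 carried NON-MET as its photoactivation target. EO771 is a single established line, so every tumor here derives from 1 model, and the photoactivation light sets which cells count as core or margin.

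Alveolar macrophages live in the airspaces, where they take up inhaled particles, microbes and used surfactant. They are seeded around birth, renew locally, and depend on the growth factor GM-CSF and the lipid-sensing receptor PPAR-gamma, which keep a program of lipid handling, scavenging and secreted proteins switched on. Several of these genes are also known outside the airspace, since Chil3 is made by inflammatory monocytes and immature neutrophils, and Fabp4 by adipocytes and small-vessel endothelium.

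The members lie on 7 chromosomes of the mouse genome (GRCm38, GENCODE vM21), and only Chil3 and Fabp4, both on chromosome 3, and Ear1 and Ear2, both on chromosome 14, share one. Chil3 spans chr3:106147554-106167564 and Fabp4 chr3:10204088-10208576, both on the minus strand. Ear1 spans chr14:43818765-43875517 on the minus strand and Ear2 chr14:44102654-44103534 on the plus strand. Car4 lies at chr11:84957786-84966044 (plus), Fabp1 at chr6:71199827-71205023 (plus), Krt79 at chr15:101929332-101940324 (minus), Marco at chr1:120474538-120505024 (minus) and Plet1 at chr9:50494525-50505482 (plus). All are annotated as protein coding.

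The sequences shown are the 250 bases before the RefSeq transcription start of Ear1 and Ear2, to show how alike this pair of near copies is, and of Chil3, the member with the most UMIs, to show its motif matches. The Ear1 stretch lies inside the longer GENCODE span of that gene. They are RefSeq sequences on GRCm38.p6, written 5′ to 3′ on the gene's strand. In the Ear pair, capitals mark the bases that differ between them. Those upstream stretches are chr14:43819640-43819889 (minus) for Ear1 and chr14:44102404-44102653 (plus) for Ear2.
Ear1: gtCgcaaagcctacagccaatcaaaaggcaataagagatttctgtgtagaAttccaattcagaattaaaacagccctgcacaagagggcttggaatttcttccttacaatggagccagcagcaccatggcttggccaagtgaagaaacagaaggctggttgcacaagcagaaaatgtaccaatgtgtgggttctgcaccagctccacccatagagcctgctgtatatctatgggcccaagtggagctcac
Ear2: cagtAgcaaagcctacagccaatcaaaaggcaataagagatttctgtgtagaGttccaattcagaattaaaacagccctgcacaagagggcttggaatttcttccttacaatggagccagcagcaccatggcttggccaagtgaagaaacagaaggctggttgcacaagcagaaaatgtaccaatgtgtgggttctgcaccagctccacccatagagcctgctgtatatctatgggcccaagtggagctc
Aligned with unpaired bases allowed at the ends, the pair shared 246 of 248 aligned positions (99.2%), with 2 differing bases and 0 gaps between them. In Chil3 (chr3:106167565-106167814, minus), capitals mark matches to a C/EBP-type motif.
Chil3: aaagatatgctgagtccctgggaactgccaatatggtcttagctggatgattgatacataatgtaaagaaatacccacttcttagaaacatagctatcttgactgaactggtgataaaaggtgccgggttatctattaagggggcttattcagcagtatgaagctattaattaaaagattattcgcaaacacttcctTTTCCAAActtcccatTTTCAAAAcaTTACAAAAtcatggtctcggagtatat
The Chil3 stretch held 3 such matches within its last bases.

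Near copies matter for counting, because the authors dropped reads that mapped to more than 1 place. Of the 50-base words in the last 500 bases of the Ear1 transcripts, 57.1% also occurred in other genes (Ear-ps2, Ear-ps9, Ear10, Ear2 and Ear6). The share was 38.1% for Ear2, 17.8% for Chil3 (Chil4 and Gm6522), 1.66% for Plet1 and 0% for the other 5 members. Counts of Ear1, Ear2 and Chil3 are therefore uncertain, and levels are not compared between genes, other than as the share of Ear1 among the UMIs of the Ear pair.

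Upstream sequence was found for 8 of the 9 members (Fabp4 was not in the table). On either strand, with matches of different motifs allowed to overlap, the C/EBP-type motif TTNNGNAA occurred in 7 of the 8, all but Krt79, and in 36.9% of the 27025 upstream sequences. The 7 count Ear1 and Ear2 separately, although their stretches are near copies. The PU.1-type motif GAGGAAG occurred in 2 (Fabp1 and Marco), against 10.4% of all. The nuclear receptor motif AGGTCA was found in 2 (Fabp1 and Plet1; 13.8% of all) and the AP-1-type motif TGANTCA in 1 (Plet1; 6.87% of all). These are matches of letters, not measured binding.

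The tables held 56832 wells on 148 plates, of which 24020 were annotated and 23425 carried an immune label, with a median of 1133 UMIs. Among them were 1791 macrophages under 4 labels and 6308 monocytes under 4 labels. Mac_Cd9 took 439 wells (median 1645 UMIs), in 17 sums of 7 to 63 wells and 5638 to 203581 UMIs. The controls' 9 plates were the only plates of their sequencing batch, so control and batch cannot be told apart in any comparison with controls. No well identifier occurred on more than 1 plate.

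The identity of Mac_Cd9 was set against markers. The authors labelled clusters of these same cells with marker genes, and Cd9 names this label. The levels are thus a description and not an independent check. Of 12 alveolar macrophage markers, 11 had a row, and each of the 11 was detected in at least 1 control, 1 relapse-free, 1 distal and 1 metastasis sum, with a summed level of 15177 to 28671 CPM. As 5 of the 11 are members, the other 6 (Siglecf, Itgax, Pparg, Mrc1, Cd9 and Lpl) were also summed alone, at 3628 to 7782 CPM (median 5970), with at least 3 of them detected in each of the 17 sums and all 6 in 12 sums. The lone Pre-MET sum lacked only Marco. All 4 eosinophil markers (Prg2, Epx, Ccr3 and Alox15) were at 0, which bears on Ear1 and Ear2, named after eosinophils. Summed levels were 0 to 453 CPM for 10 interstitial macrophage markers, with C1qa, Folr2, Cd163 and Lyve1 at 0 in every sum, 0 to 1226 CPM for 5 classical monocyte markers, 0 to 1056 CPM for 6 patrolling monocyte markers and 128 to 2488 CPM for 7 neutrophil markers. Epithelial markers reached 522 CPM, endothelial markers 92.1 CPM, T and NK cell markers 244 CPM and B cell markers 44.2 CPM. Their part in the results was not tested.

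Because the labels came from clustering these same cells, levels across labels are a description and carry no test. Members fell into 3 patterns. Fabp1, Krt79, Marco and Car4 were close to private to Mac_Cd9. Ear1 and Plet1 were mostly there, and Chil3, Ear2 and Fabp4 had most of their UMIs elsewhere. Mac_Cd9 held 96.2% of all 902 Krt79 UMIs of immune wells (exact binomial 95% interval 94.8 to 97.4), 95.8% of 1468 for Fabp1 (94.6 to 96.7), 93.4% of 473 for Marco (90.8 to 95.5) and 90.0% of 740 for Car4 (87.6 to 92.1). It held 75.96% of 753 Ear1 UMIs (72.7 to 79.0) and 66.2% of 1175 for Plet1 (63.4 to 68.9), with another 24.7% of Plet1 in conventional dendritic cells. For Ear2 the share was 37.6% of 3244 (35.9 to 39.3), beside 25.5% in Mon_Ace and 19.6% in Mon_Fn1. For Chil3 it was 30.1% of 42677 (29.6 to 30.5), beside 49.8% in Mon_Fn1, and for Fabp4 11.9% of 1679 (10.3 to 13.5), beside 44.4% in Mon_Ace. These intervals cover counting error only. Within macrophage labels alone, Mac_Cd9 held between 91.9% (Chil3) and 100% (Krt79) of each member's UMIs, except for Fabp4, at 37.6%.

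**Figure D1:**
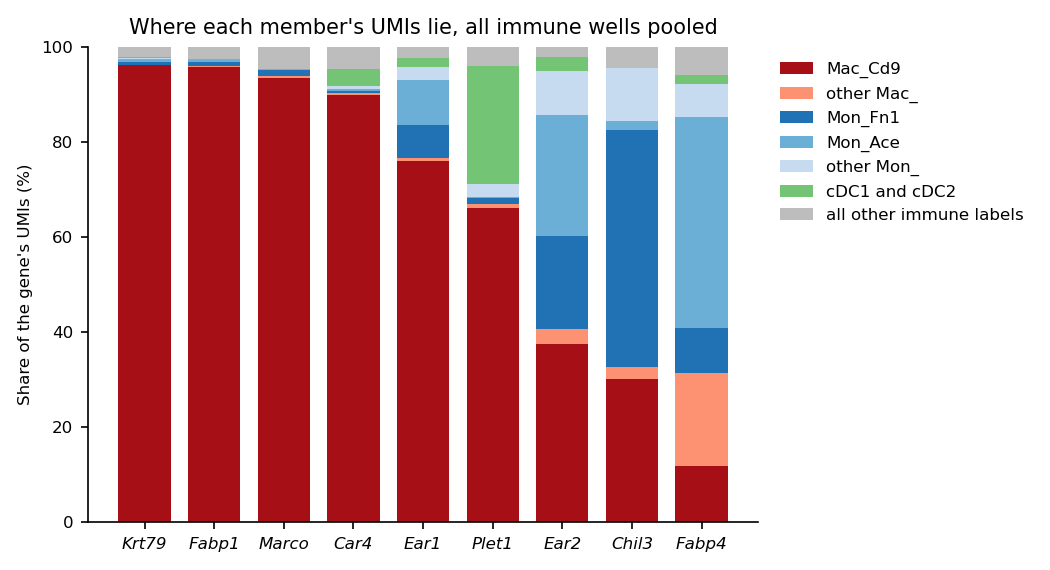
Share of each member's UMIs over all immune wells (percent, vertical axis) held by Mac_Cd9 and by other groups of labels, 1 stacked bar per gene. Mac_Cd9 takes 96.2% of Krt79 but 11.9% of Fabp4, most of which lies in monocytes.

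Chil3 (Ym1) is a secreted chitinase-like lectin. In Mac_Cd9 it stood at 12041 ± 3635 CPM (SD, n = 17 sums), against 2636 ± 1792 in Mon_Fn1 (n = 61), 2376 ± 1658 in Neut_Camp (n = 7) and 1293 ± 1166 in Mon_Thbs1 (n = 35). Mon_Ace followed at 516 ± 473 (n = 49), Mac_Gpnmb at 424 ± 546 (n = 24) and Mac_Isg20 at 415 ± 485 (n = 24). The gap between Mac_Cd9 and Mon_Fn1 exceeded both SDs although their ranges overlapped, and no neighbouring labels from Mon_Fn1 down to Mac_Isg20 differed beyond their spread.

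Ear1 and Ear2 encode secreted ribonucleases of the eosinophil-associated family. Ear1 stood at 469 ± 241 CPM in Mac_Cd9 and next at 26.3 ± 56.9 in Mon_Ace, a gap beyond both SDs. Ear2 stood at 1021 ± 369 CPM in Mac_Cd9, then at 359 ± 270 in Mon_Ace, 108 ± 317 in Mac_Cd81 (n = 23), 106 ± 147 in Mon_MHC-II (n = 41) and 73.5 ± 77.8 in Mon_Fn1. From Mon_Ace downwards no neighbours differed beyond their spread. In sums with at least 5 UMIs of the Ear pair, Ear1 made up 30.8% ± 12.8 of the pair's UMIs in Mac_Cd9 (n = 17 sums, median 31.5%). This share was 6.67% ± 9.24 in Mon_Ace (n = 27, up to 38.9%), 8.33% ± 11.3 in Mon_Fn1 (n = 32, up to 40.0%), 9.67% ± 12.7 in Mon_Thbs1 (n = 7) and 5.51% ± 8.25 in Mon_MHC-II (n = 10), and the ranges of Mac_Cd9 and these labels overlapped. The share itself rests on the uncertain counts of both genes, which were made in the same way in every label.

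Marco, a scavenger receptor that binds bacteria and unopsonized particles, reached 370 ± 399 CPM in Mac_Cd9 and at most 2.64 ± 12.7 in any other label (B cells). Car4, a membrane-anchored carbonic anhydrase, reached 893 ± 982 CPM there and next 20.1 ± 88.6 in DC_cDC2 (n = 36). For both genes the SD within Mac_Cd9 exceeded the mean, so the gap did not pass both SDs. Plet1, a glycolipid-anchored surface protein, stood at 790 ± 379 CPM in Mac_Cd9 and at 157 ± 281 in DC_cDC1 (n = 18), which lay beyond both SDs, ahead of 53.9 ± 144 in DC_migDC (n = 8) and 53.6 ± 112 in DC_cDC2.

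Fabp1 and Fabp4 are cytoplasmic fatty acid carriers. Fabp1, best known from liver, stood at 1033 ± 584 CPM in Mac_Cd9 and at no more than 7.85 ± 22.5 elsewhere (T_CD8_Dapl1, n = 23), and was the only member whose Mac_Cd9 range did not overlap that of the next label. Fabp4, the adipocyte form, was highest in Mon_Ace at 297 ± 287 CPM, ahead of Mac_Cd9 at 164 ± 163, Mac_Gpnmb at 137 ± 115 and Mac_Isg20 at 63.2 ± 149, and none of these neighbours differed beyond their spread. Krt79, a type II keratin, stood at 792 ± 374 CPM in Mac_Cd9 and at no more than 2.18 ± 10.5 in another label (T_CD8_Lag3, n = 23), beyond both SDs. In 326 lymphocyte sums the mean of Chil3 was 30.2 CPM and that of the other members 0.48 to 5.08 CPM, which serves as the background level here. The 592 wells left empty held 8490 UMIs in all, among them 10 of Chil3, 2 of Plet1 and 1 each of Car4, Ear2 and Krt79, so a few stray UMIs of these genes occurred on the plates.

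**Figure D2:**
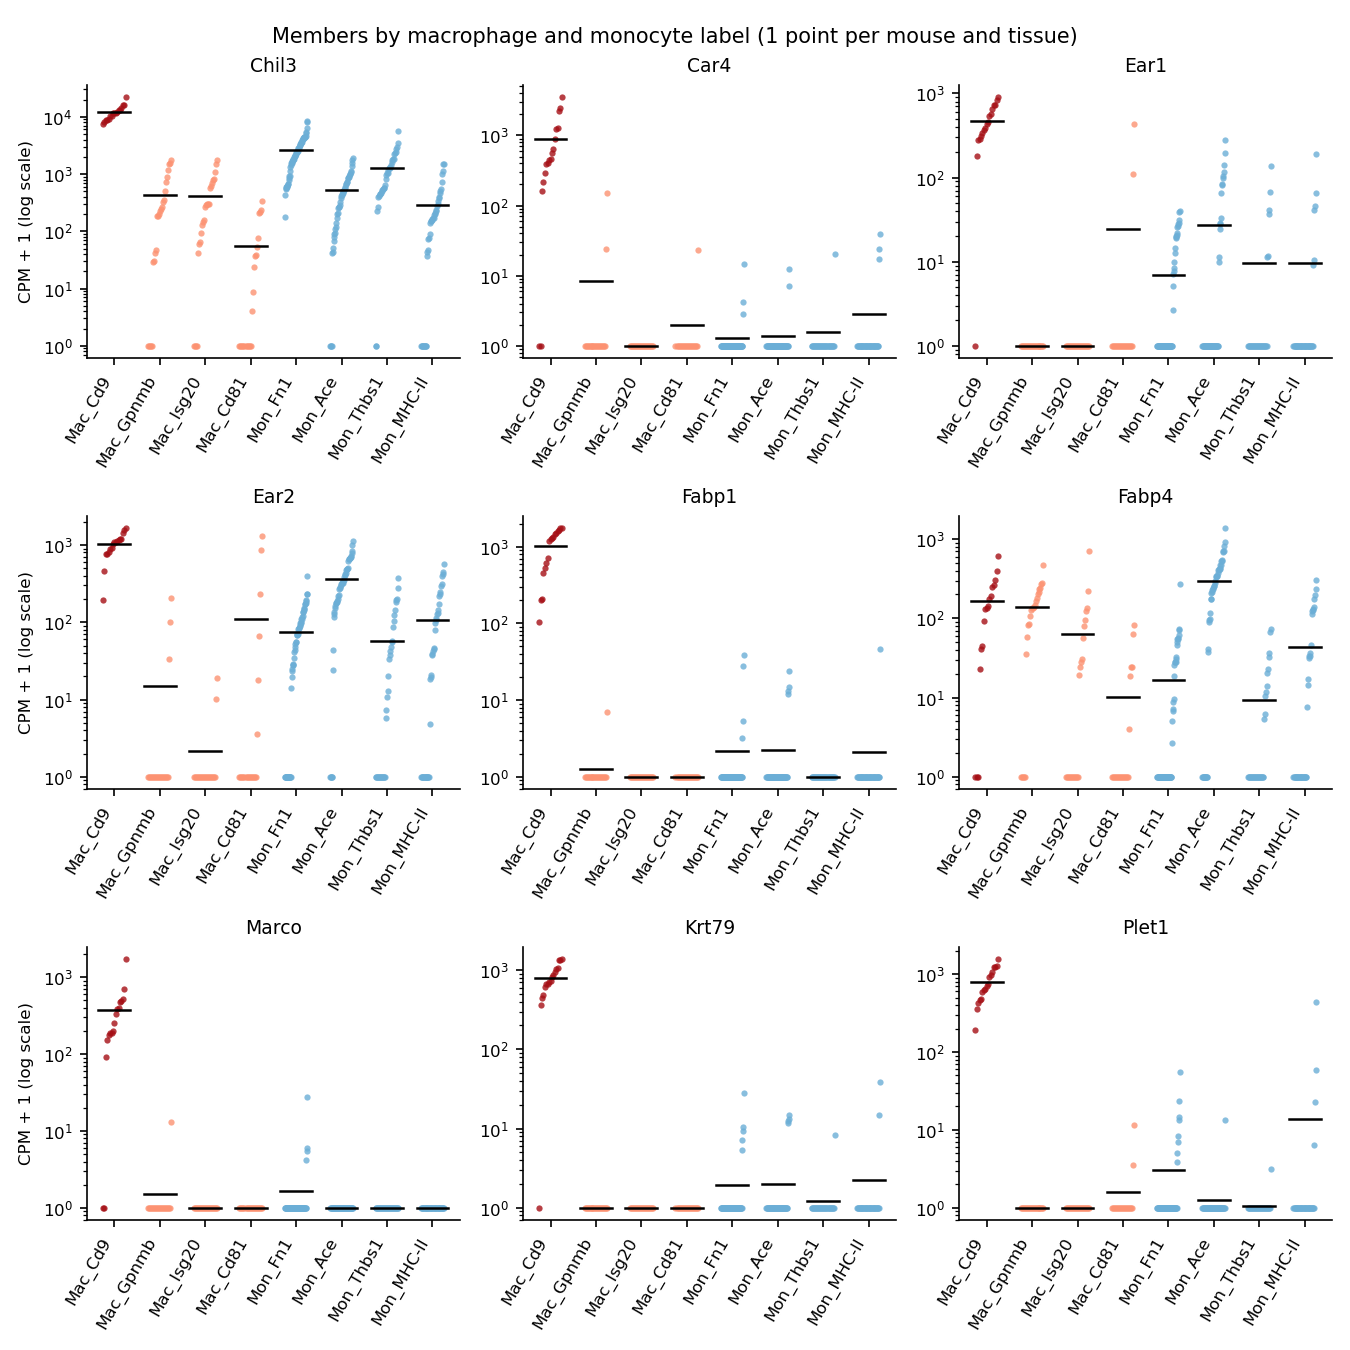
CPM + 1 on a log axis of each member (panels) in the sums of the macrophage and monocyte labels, 1 point per mouse and tissue, with a line at each mean. Fabp1, Krt79, Marco and Car4 lie near the bottom outside Mac_Cd9, while Chil3 and Ear2 extend into the monocyte labels and Fabp4 is highest in Mon_Ace.

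The members were also counted well by well. After each well was thinned to 500 UMIs, Chil3 was seen in 95.2% of Mac_Cd9 wells, 48.3% of Mon_Fn1 wells and 2.07% of T, B and NK wells, the last serving as background. Ear2 was seen in 30.8% of Mac_Cd9, 11.3% of Mon_Ace and 0.240% of T, B and NK wells, and Fabp4 in 4.33% of Mac_Cd9 and 10.5% of Mon_Ace wells. The other members were seen in 9.79% (Marco) to 31.9% (Fabp1) of Mac_Cd9 wells. Unthinned, the Chil3 shares were 98.4% in Mac_Cd9 and 62.8% in Mon_Fn1, and those of Ear2 53.8% in Mac_Cd9 and 19.8% in Mon_Ace. Of the 7 members other than Chil3 and Ear2, at least 3 were seen together in 54 of 439 thinned Mac_Cd9 wells (12.3%, exact 95% interval 9.38 to 15.7), and in 201 (45.8%) unthinned. In the other macrophage and monocyte labels this held for 0 of 7660 thinned wells, which allows a share of thinned wells of up to 0.0392%, and for 1 unthinned well, of Mon_Ace (0.0727% of 1375). In T, B and NK cells it held for 0 of 10411 wells, thinned or not, up to 0.0288%. The interval and these limits treat wells as independent, although wells of the same mouse are not replicates, so they leave out the spread between mice. The labels came from clustering these same cells, so the contrast between labels is a description. In thinned Mac_Cd9 wells the share was 13.8% in controls, 11.4% in relapse-free lungs, 12.7% in distal tissue and 13.04% in metastases, with 1 of 9 wells in Pre-MET lungs, 0 of 9 in margins, 0 of 3 in cores and 0 of 1 in primary tumors. Unthinned, it was 51.9% in controls, 47.1% in relapse-free lungs, 35.2% in distal tissue, 45.7% in metastases, 44.4% in Pre-MET lungs and 22.2% in margins, where median depths ran from 1118 UMIs per well in distal tissue to 3706 in Pre-MET lungs.

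Within Mac_Cd9, the 17 sums came from different mice and tissues. The coefficient of variation over them was 30.2% for Chil3, where counting alone gives 6.49%, and 36.2% for Ear2 (22.3%), 47.2% for Krt79 (25.3%), 48.0% for Plet1 (25.3%), 51.4% for Ear1 (32.9%), 56.5% for Fabp1 (22.2%) and 99.2% for Fabp4 (55.6%). It was 110% (23.8%) for Car4 and 108% (37.1%) for Marco, or 70.1% for Marco without metastasis mouse 31.

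The secreted members were present in nearly all Mac_Cd9 sums. Chil3 stood at 12928, 11538 and 10326 CPM in the 3 controls, at 8877, 9023, 13053 and 7622 in relapse-free mice 6, 7, 11 and 29, at 7982, 15855, 11762, 12143, 22182 and 14274 in distal tissue of mice 23, 26, 28, 30, 32 and 33, at 8841, 11811 and 16040 in metastases of mice 28, 30 and 31, and at 10437 in Pre-MET mouse 8. The 4 larger groups overlapped, and relative to its mean Chil3 varied least of the members with counting error left in. Counting alone gave 6.49% for Chil3 and 22.3% for Ear2, which came next, so this order partly follows the number of UMIs. Ear2 ranged from 1035 to 1194 CPM in controls, 810 to 1565 in relapse-free lungs, 192 to 1660 in distal tissue and 460 to 891 in metastases. Ear1 ranged from 459 to 722 CPM in controls, 371 to 718 in relapse-free lungs, 177 to 905 in distal tissue and 0 to 436 in metastases, where mouse 28 had no UMI. Pre-MET mouse 8 lay at 757 CPM for Ear2 and 279 CPM for Ear1.

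Car4 was the least even of the surface members. It stood at 564, 408 and 289 CPM in controls and at 385, 878, 449 and 650 in relapse-free mice 6, 7, 11 and 29. In distal tissue it was 1242, 2210 and 3537 CPM in mice 23, 26 and 28, 218 in mouse 30, and 0 in mice 32 and 33, whose depths allow up to 453 and 276 CPM. In metastases it was 2453, 1281 and 453 CPM in mice 28, 30 and 31, and in Pre-MET mouse 8 it was 159. Mouse 28 was thus high in both of its tissues, but in its metastasis 41 of the 48 Car4 UMIs came from 1 of 9 wells. The top well held 18 of 23 in the metastasis of mouse 30 and 17 of 26 in that of mouse 31. In distal tissue of mouse 28 it held 26 of 80. The distal mice spread on either side of the controls. The sums of distal mice 23, 26, 28 and 30 carried 1 batch label and those of mice 32 and 33 another. The part of the batch in this spread was not tested.

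Marco stood at 488, 398 and 197 CPM in controls, at 89.8, 187, 517 and 390 in relapse-free mice, at 709, 0, 177, 479, 151 and 184 in distal tissue, and at 256, 334 and 1726 in metastases of mice 28, 30 and 31, with 0 in the Pre-MET sum. Metastasis mouse 31 alone lay above all other sums. Plet1 ranged from 459 to 747 CPM in controls, 429 to 1256 in relapse-free lungs, 192 to 1566 in distal tissue and 593 to 1226 in metastases, with 478 in the Pre-MET sum, which lay below the metastases, while the 4 larger groups overlapped.

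Among the lipid carriers, Fabp1 stood at 1458, 1754 and 1588 CPM in controls, at 1495, 1295, 1171 and 606 in relapse-free mice 6, 7, 11 and 29, at 709, 1249, 531, 1741, 453 and 1658 in distal tissue, at 102, 1337 and 209 in metastases and at 199 in the Pre-MET sum. The controls were the most even group and the metastases of mice 28 and 31 the lowest sums beside the Pre-MET sum. Fabp4 ranged from 142 to 400 CPM in controls, 22.0 to 302 in relapse-free lungs, 0 to 604 in distal tissue and 0 to 174 in metastases. Krt79 stood at 864, 948 and 617 CPM in controls and 1020, 670, 663 and 823 in relapse-free mice. It was 709, 1057, 0, 1349, 1358 and 1381 CPM in distal tissue, 358, 446 and 488 in metastases and 717 in the Pre-MET sum. The metastasis sums lay below every distal sum but that of mouse 28, which had no Krt79 UMI (0 of 22615, up to 133 CPM).

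**Figure D3:**
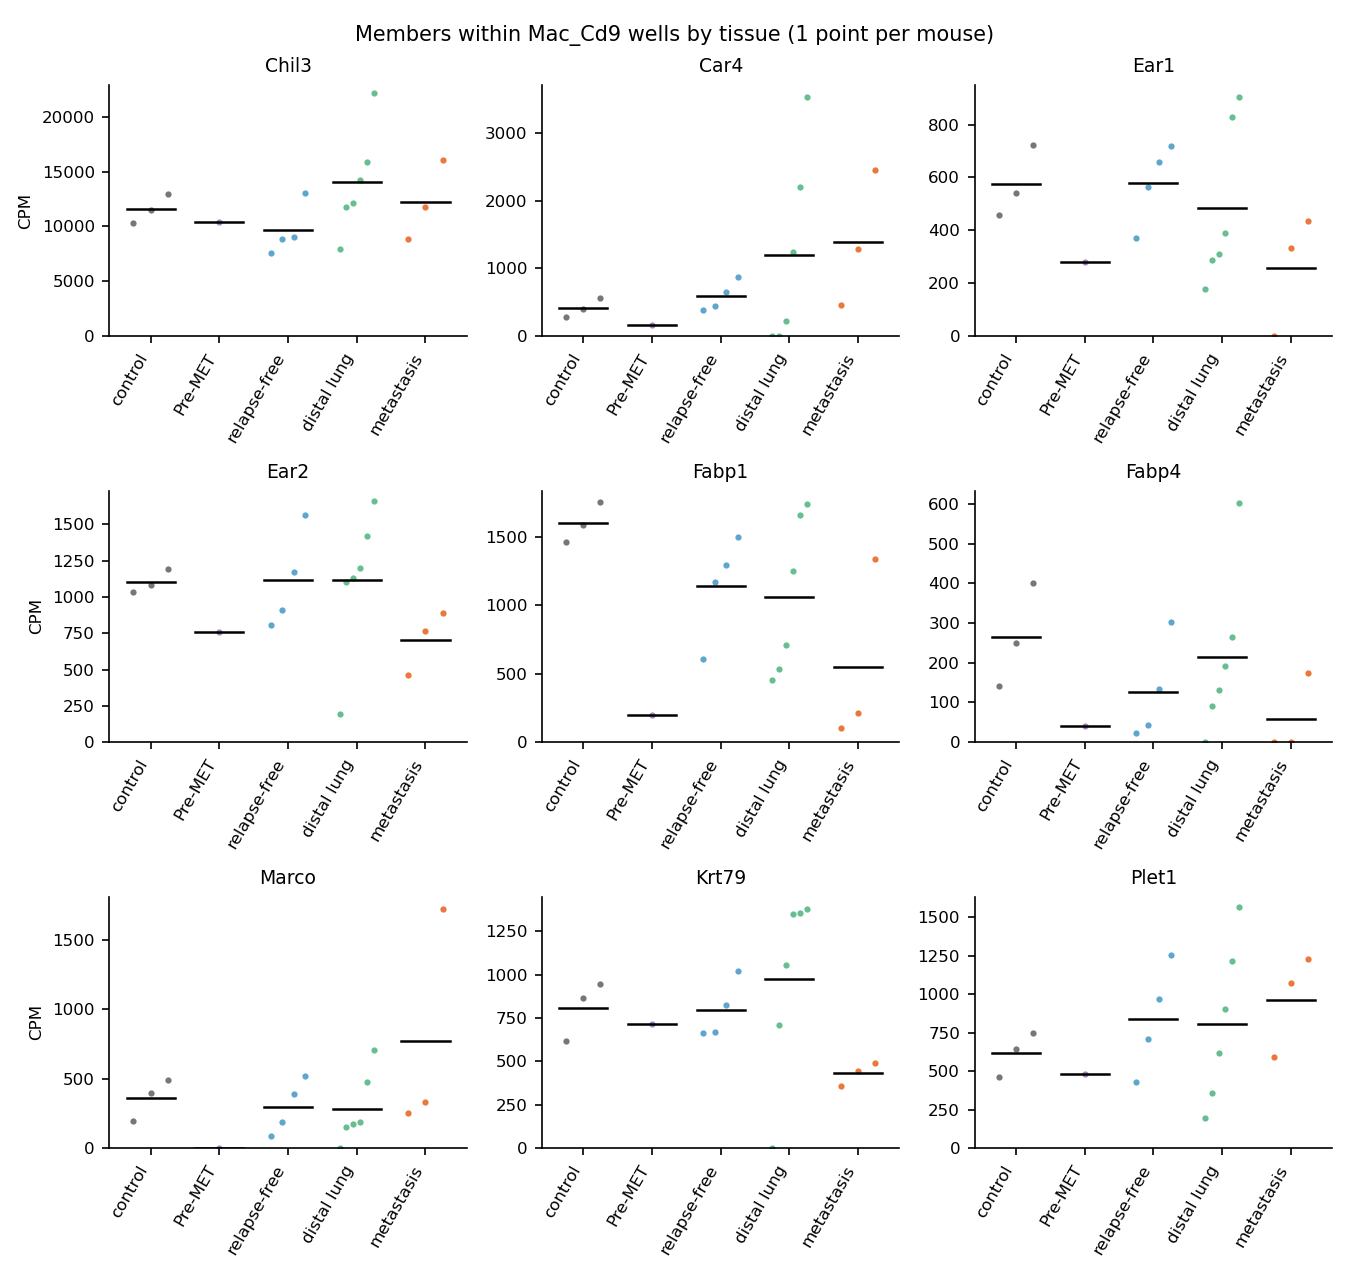
CPM of each member (panels, linear axis from 0) in the 17 Mac_Cd9 sums by tissue, 1 point per mouse, with a line at each mean. Metastasis and distal sums overlap for every member, Car4 spreads from 0 to 3537 CPM in distal tissue, and metastasis mouse 31 stands apart for Marco at 1726 CPM.

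None of the 8 members with enough counts to test (Fabp4 was not) was called different inside Mac_Cd9. The fit was edgeR's quasi-likelihood test over 16 sums of 4 tissues and 612 genes, with calls at a Benjamini-Hochberg adjusted p under 0.05. Between relapse-free and control lungs 0 members were called, beside 0.163% of all genes (1 of 612, Ftl1-ps1, 2.16 on the log2 scale). In this comparison 14 genes and 0 members had an unadjusted p under 0.05, and DESeq2 called 1 gene and 0 members. Chil3 gave a log2 fold change of -0.28 (SE 0.35). Without relapse-free mouse 6 or mouse 7, whose gates differed, 0 members were called.

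Between distal tissue and control lungs 0 members were called, beside 0.98% of all genes (6 of 612, among them Gm12174, 3.69, and Gm10837, -4.50). Here 59 genes and 1 member, Car4, had an unadjusted p under 0.05, and DESeq2 called 14 genes and 0 members. The Car4 level was 1201 ± 1437 CPM in distal tissue (n = 6) and 420.3 ± 138 in controls (n = 3), a log2 fold change of 1.53 (SE 0.70, edgeR adjusted p = 0.446), or 0.59 without distal mouse 28. Between metastases and distal tissue 0 members were called, beside 0% of all genes. Of these genes 36, and 1 member, Marco, had an unadjusted p under 0.05, and DESeq2 called 0 genes. Marco stood at 772 ± 827 CPM in metastases (n = 3) and 283 ± 260 in distal tissue (n = 6), a log2 fold change of 1.74 (SE 0.65, edgeR adjusted p = 0.791), or 0.28 without metastasis mouse 31 and -0.10 with sequencing batch as a term. The value with the batch term rests on metastasis mouse 28, since the sums of metastasis mice 30 and 31 were each alone under their batch label. Each sum carried 1 batch label, although its wells could come from more than 1 batch. Relapse-free mouse 6, for example, carried different labels in its Mac_Cd9 and Mac_Cd81 sums. Fabp1 gave -1.06 (SE 0.56) and Krt79 -1.001 (SE 0.57), each with an edgeR adjusted p of 0.845. Fabp1 was -0.52 without metastasis mouse 31, -0.60 without metastasis mouse 28 and -2.47 without metastasis mouse 30, where it was called (adjusted p = 0.047). Of a list of 26 other alveolar macrophage genes, 15 were tested and 0 called in each of the 3 comparisons.

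All macrophages of a sample were also summed, whatever their label. From such a sum alone, fewer cells of a type, more cells of other types and less RNA per cell cannot be told apart. Distal tissue held 71 Mac_Cd9, 19 Mac_Gpnmb, 7 Mac_Isg20 and 22 Mac_Cd81 wells among 3974 immune wells. Metastases held 46, 171, 208 and 96 of these among 4010. The part of these counts in the results was not tested. Mac_Cd9 made up 92.6% ± 4.18 of macrophage wells in controls (n = 3), 74.8% ± 19.8 in relapse-free lungs (n = 5), 65.6% ± 23.6 in distal tissue (n = 7), 11.8% ± 15.0 in metastases (n = 11), 12.0% ± 17.6 in margins (n = 7, or 5.62% without mouse 28), 0.403% ± 0.943 in cores (n = 12, or 0.207% without mouse 30 and 0.233% without mouse 24) and 1.09% ± 2.17 in primary tumors (n = 4, from 1 well of mouse 8, and 0 without it). It made up 87.5% in the lone Pre-MET sum, which was 7 of 8 wells of mouse 8. Pre-MET lungs held 9 Mac_Cd9 wells among 1406 immune wells, against 160 among 2064 in controls.

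Between metastases and distal tissue, 5 of the 9 members were lower in metastases and 0 higher (edgeR's quasi-likelihood test over 49 sums and 3806 genes), beside 6.04% of all genes called (230, of which 178 were higher and 52 lower). DESeq2 called 219 genes with the opposite balance, 75 higher and 144 lower, and 3 members, all lower. The median log2 fold change of all genes was 0.29 with edgeR and -0.14 with DESeq2, while that of the 9 members was -2.09 and -2.60. Chil3 ranged from 83.2 to 8660 CPM in metastases (median 1043) and from 2548 to 17143 in distal tissue (median 10421), with a log2 fold change of -2.07 (SE 0.57, adjusted p = 0.0191). Fabp1 ranged from 0 to 563 CPM in metastases (median 33.1) and from 170.1 to 1494 in distal tissue (median 423), at -2.59 (SE 0.61, adjusted p = 0.00702). Krt79 had medians of 40.9 and 788 CPM (-3.06, SE 0.66, adjusted p = 0.00265), Car4 of 14.5 and 283 CPM (-2.91, SE 0.74, adjusted p = 0.0134) and Plet1 of 15.4 and 529 CPM (-2.17, SE 0.65, adjusted p = 0.0327), all from edgeR. The ranges of the tissues overlapped for every member.

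Of the 4 members not called, Ear1 gave a log2 fold change of -2.09 (edgeR adjusted p = 0.0755), Ear2 of -1.75 (0.0758), Marco of -0.36 (0.832) and Fabp4 of 0.09 (0.959), which was -0.49 with DESeq2. Leaving out single mice moved Ear1 to between -3.10 and -1.74 and Ear2 to between -3.23 and -1.46, and both were called without metastasis mouse 24 (edgeR adjusted p = 0.00332 and 0.000174), as was Ear1 without distal mouse 17 (0.0438). Fabp4 stood at 102 ± 98.9 CPM in metastases and 153 ± 154 in distal tissue, means that run opposite to its fitted change with edgeR. With sequencing batch as a term, 7 members were called lower, all but Fabp4 and Marco. The number of all genes called in that fit is not given here, so the 7 are not set against the general rate. In the 6 mice with both tissues, fitted with the mouse as a block, only Chil3 (-3.35) and Fabp1 (-3.62) had enough counts to test, and both were lower (edgeR adjusted p = 7.0e-06 and 0.000113), among 131 genes called of 742. Leaving out single mice gave 3 to 7 members. Without distal mouse 28, 3 members were called and Car4 was lost (-1.80, adjusted p = 0.181), and without distal mouse 30, 3 were called and Fabp1 was lost (-2.03, adjusted p = 0.0531). Plet1 was lost in 9 of the 18 fits that left out 1 sum. Without the Mac_Cd9 wells, which left 2 of 7 distal and 10 of 11 metastasis sums, 0 genes were called (569 with an unadjusted p under 0.05) and 3 members were tested and not called, with log2 fold changes of 2.72 for Chil3, 2.75 for Ear2 and 1.86 for Fabp4.

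Of the list of 26 other alveolar macrophage genes, 23 were tested in this comparison, of which 9 were lower in metastases, 0 were higher and the rest did not pass the test, with a median log2 fold change of -1.59. The 9 were Siglecf (-3.19), a sialic acid-binding receptor that marks these cells, Mrc1 (-1.76), the mannose receptor, Lpl (-1.99), lipoprotein lipase, and Abcg1 (-1.89), a cholesterol exporter, together with Axl, Atp6v0d2, Cd164, Krt19 and Perp.

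**Figure D4:**
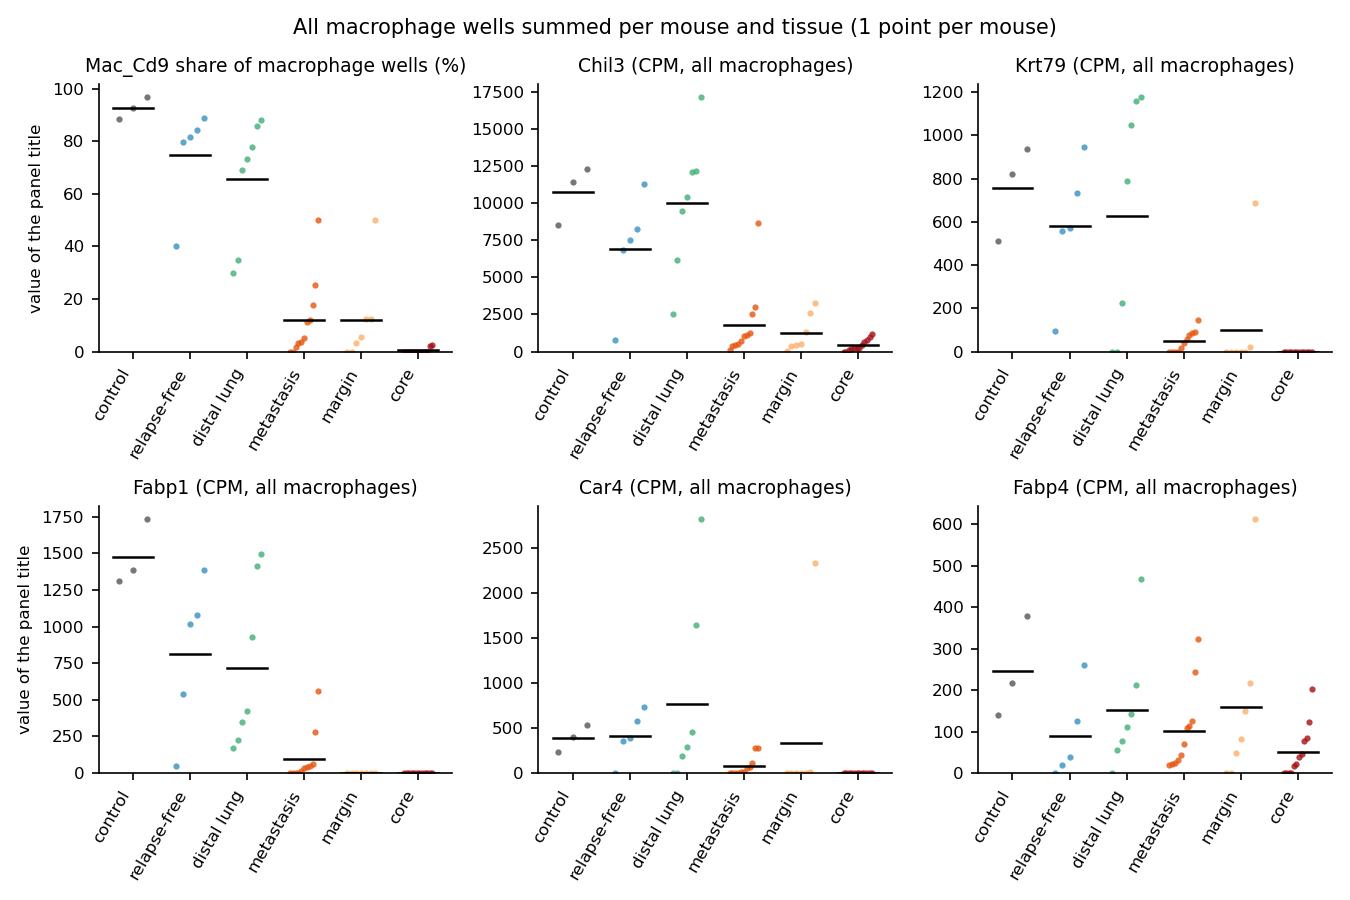
Mac_Cd9 share of macrophage wells (percent) and CPM of Chil3, Krt79, Fabp1, Car4 and Fabp4 in sums of all macrophage wells (linear axes from 0) by tissue, 1 point per mouse, with a line at each mean. Chil3, Krt79 and Fabp1 reach highest in control, relapse-free and distal sums, as does the Mac_Cd9 share, while Fabp4 overlaps between all tissues shown.

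In macrophages of metastasis cores, 6 of the 9 members had no UMI. Over 12 core sums with 924240 UMIs in all, Car4, Ear1, Fabp1, Marco, Krt79 and Plet1 had none, against a floor of 3 UMIs over the group (3.25 CPM). In the 7 margin sums (395115 UMIs), pooled, Car4 had 19 UMIs, a level 14.8-fold the core floor, but 17 of them came from mouse 28, leaving 2. Plet1 had 14 UMIs (10.9-fold the floor, 11 UMIs without mouse 28), Krt79 8 (6.24-fold, 3 without mouse 28) and Ear1 4 (3.12-fold). The Ear1 UMIs all came from mouse 17, whose margin carried NON-MET as its photoactivation target. These ratios leave out the counting error and the spread of the margins, so they are not lower bounds. Marco had 2 UMIs in margins and Fabp1 none. Ear2 had 2 UMIs in cores and 16 in margins. Chil3 stood at 412 ± 393 CPM in cores and 1229 ± 1258 in margins, and Fabp4 at 51.0 ± 62.1 and 159 ± 215.

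By edgeR 0 members were called between core and margin, beside 0.105% of all genes (4 of 3806, among them Slc40a1, 4.75, and Hspa1b, 4.13). Of the members 6 had an unadjusted p under 0.05 (all but Fabp1, Fabp4 and Marco), as did 398 genes. The lowest adjusted p values were 0.0568 for Car4 and 0.0907 for Plet1, and Chil3 gave a log2 fold change of -1.38 (SE 0.59, adjusted p = 0.384). DESeq2 called 45 genes and 2 members, Car4 and Plet1, both lower in cores. In the 5 mice with both regions, with the mouse as a block, edgeR called 0 of 981 genes (75 with an unadjusted p under 0.05), and only Chil3 of the members was tested (-1.51, adjusted p = 0.499). In primary tumors, Chil3 ranged from 2.79 to 207 CPM (n = 4), and Car4, Ear1, Fabp1, Krt79 and Marco had no UMI.

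In Mon_Fn1, the largest monocyte label (3053 wells), 2 members had enough counts to test, Chil3 and Ear2. Chil3 stood at 1145, 564 and 658 CPM in controls 1, 2 and 3 and at 2895, 1554 and 1818 in Pre-MET mice 8, 9 and 10. Ear2 stood at 0, 26.9 and 54.8 CPM in controls and at 109, 97.3 and 115 in Pre-MET mice. The groups did not overlap for either gene, which was also so for 22.4% of all 3381 genes tested (756). By edgeR 0 members were called, beside 0% of all genes (293 genes and 1 member, Chil3, had an unadjusted p under 0.05, and DESeq2 called 0). Chil3 gave a log2 fold change of 1.47 (SE 0.71, adjusted p = 0.571) and Ear2 of 2.11 (SE 1.09, adjusted p = 0.576). Leaving out single mice moved Ear2 to between 1.73 (without control 1) and 2.91 (without control 3) and Chil3 to between 1.26 and 2.04, with 0 members called. In the same sums, 7 neutrophil markers together ranged from 111 to 494 CPM in controls and from 1057 to 2201 in Pre-MET lungs, with Ngp and Ltf at 0 in both. The 10 interstitial macrophage markers ranged from 2193 to 2548 CPM in controls and from 388 to 468 in Pre-MET lungs, with C1qa, Folr2, Lyve1 and Gpnmb at 0 in both. The part of either in the result was not tested.

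In the other tissues Chil3 of Mon_Fn1 spread widely. It ranged from 174 to 8037 CPM in distal tissue (median 2866, n = 14), 588 to 5330 in metastases (median 2867, n = 13), 437 to 8317 in cores (median 2035, n = 11), 1588 to 3695 in margins (median 2085, n = 7), 545 to 4384 in relapse-free lungs (median 1582, n = 6) and 615 to 3370 in primary tumors (median 2816, n = 4). Between metastases and distal tissue, edgeR called 0 members and 0% of all genes (60 with an unadjusted p under 0.05, DESeq2 0), with log2 fold changes of -0.15 for Chil3 (SE 0.32) and -0.47 for Ear2 (SE 0.45). Between core and margin it again called 0 members and 0% of all genes (213 with an unadjusted p under 0.05, DESeq2 0), with -0.13 for Chil3 (SE 0.42) and -0.33 for Ear2 (SE 0.75). No member had an unadjusted p under 0.05 in these comparisons. The fits treated tissues of the same mouse as independent, although 13 mice had sums of both metastasis and distal tissue. Their SEs are thus not those of changes within a mouse.

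In Mon_Ace, the patrolling monocyte label (1375 wells), Chil3, Ear2 and Fabp4 were tested. Chil3 stood at 254, 109 and 168 CPM in controls and at 323, 456 and 592 in Pre-MET mice, groups that did not overlap, as for 17.1% of all 1622 genes (277). Fabp4 stood at 404, 413 and 715 CPM in controls and at 705, 523 and 416 in Pre-MET mice, and Ear2 at 692, 347 and 308 against 988, 201 and 658. Both of these pairs overlapped. By edgeR 0 members were called, beside 0% of all genes (37 with an unadjusted p under 0.05, none of them a member, and 0 by DESeq2), with log2 fold changes of 1.31 for Chil3 (SE 0.84), 0.38 for Ear2 and 0.04 for Fabp4. The 5 classical monocyte markers together ranged from 130.3 to 336 CPM in these controls and from 564 to 925 in Pre-MET lungs, and their part in the result was not tested. Between metastases and distal tissue the counts were again 0 members and 0% of all genes (40 with an unadjusted p under 0.05, none of them a member, and 0 by DESeq2). Fabp4 stood at 419 ± 465 CPM in metastases (n = 10) and 250.03 ± 158 in distal tissue (n = 12), with a log2 fold change of 0.47 (SE 0.48), and Ear2 at 429.9 ± 269 and 365 ± 210. The fitted log2 fold change of Ear2, -0.10 (SE 0.45), had the opposite direction to these means.

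**Figure D5:**
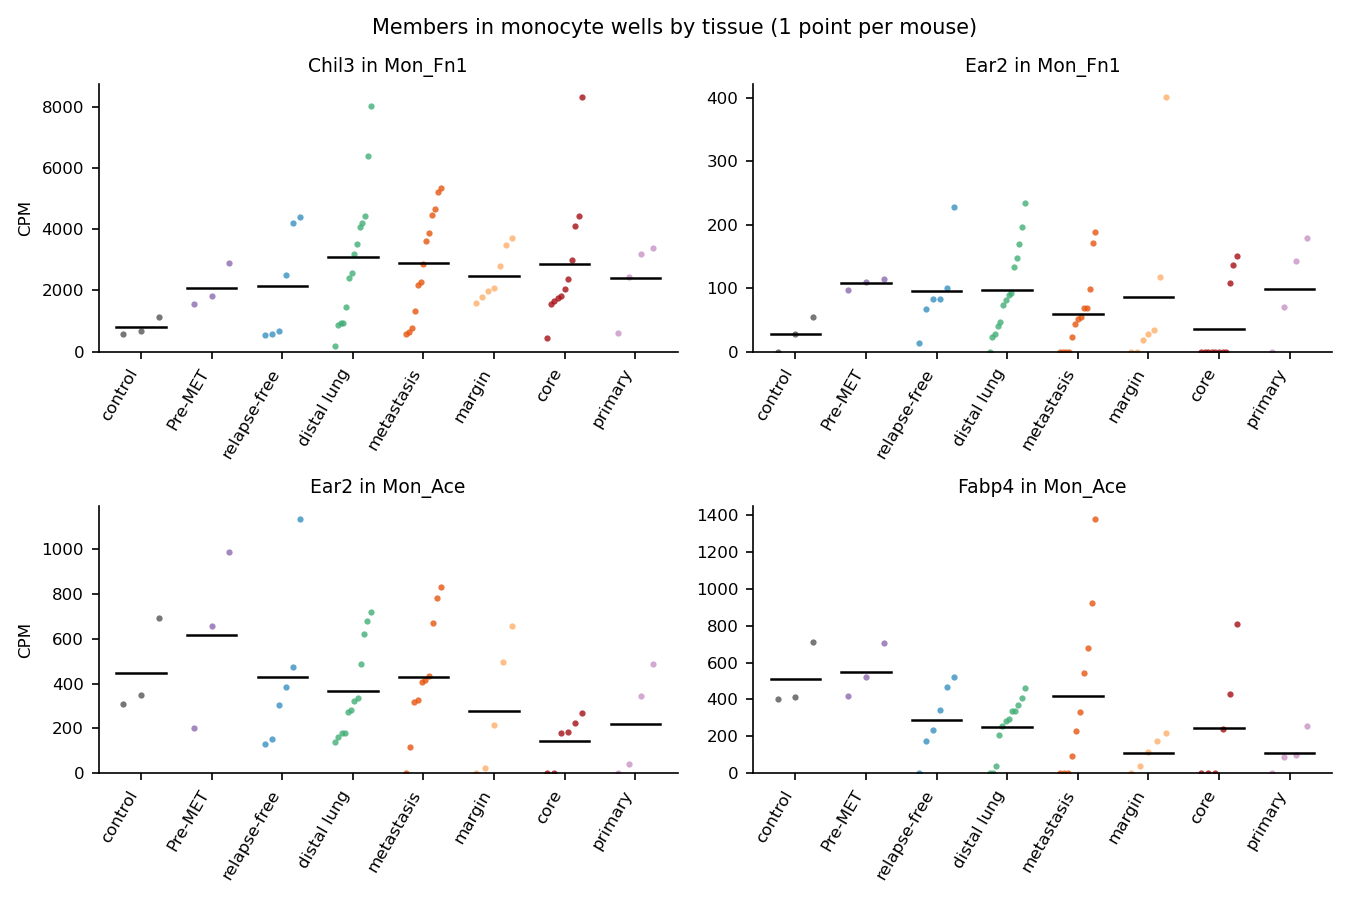
CPM (linear axis from 0) of Chil3 and Ear2 in Mon_Fn1 and of Ear2 and Fabp4 in Mon_Ace by tissue, 1 point per mouse, with a line at each mean. The 3 Pre-MET sums lie above the 3 control sums for both genes in Mon_Fn1, and these groups overlap for both genes in Mon_Ace.

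The genes whose mean levels over the 27 immune labels were most like the mean pattern of the 9 members, among 13579 genes, were relatives or copies of Ear genes, Ear-ps12 (Pearson r = 0.971), Ear-ps2 (0.967) and Ear-ps9 (0.965), followed by Clmn (0.952) and Clec1b (0.951). Those most like Chil3 were Gm6522 (0.902) and Chil4 (0.880), which share sequence with it, and Tnfrsf21 (0.859). Those most like Ear2 were Mob3b (0.921) and Grk5 (0.913). The labels share libraries, so these are descriptions over 27 points. Not every relative followed. Chil1 had 10 of its 4046 UMIs in Mac_Cd9 and Fabp5 106 of 3731, whereas Chil4 had 118 of 320, Ear10 30 of 67 and Ear6 25 of 28.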

How the data were processed

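Each sample was sequenced on 384-well plates, 1 sorted cell per well. The authors demultiplexed reads (bcl2fastq 2.15.0.4, per the submitters' processing notes), mapped them to mm10 with HISAT, discarded reads with several mapping positions, assigned the rest to exons with overlapping genes joined, and deposited whole-number UMI counts per gene and well with no normalization and no well removed. They kept wells with at least 500 UMIs and labelled them by MetaCell clustering. These labels were used as deposited, and erythrocyte, outlier and tumor wells (595) were left out. Doublets were excluded by the authors' sort gates and no doublet caller was run. The gene annotation version is not given in the sources used here.

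Counts were summed per mouse, tissue and label over at least 5 wells. A depth of 5638 to 203581 UMIs per Mac_Cd9 sum means that 3 UMIs, the floor used for a count of 0, stand for 14.7 to 532 CPM. The main test was edgeR 4.0.16 with limma 3.58.1 in R 4.3.3 (quasi-likelihood test after TMM scaling and the filterByExpr filter, calls at a Benjamini-Hochberg adjusted p under 0.05 over all tested genes), with all tissues of a label in 1 fit, and DESeq2 1.42.0 was an alternative. The fits were tried on simulated counts with known large changes, in the first comparison of each label. This does not show how small a change they can call. Other alternatives were no filter on low counts, 10 cells per sum, wells of at least 1000 UMIs, batch as a term, the mouse as a block, all macrophages without Mac_Cd9, and leaving out single mice. The batch term used 1 batch label per sum, although the wells of a sum could come from more than 1 batch. Same-numbered samples are the same animal by the labels, so the numbers pair them. Correlations of their deviations from the group means ranged from -0.08 to 0.41. Sums were made with Python 3.11.15, numpy 2.4.6 and pandas 2.3.3, intervals and correlations with scipy 1.17.1, and figures with matplotlib 3.10.9. Wells were thinned by sampling 500 UMIs without replacement.

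The members and the lists were chosen with earlier results of these data known. Genes named beside the members are the called genes with the largest changes, the called genes of the alveolar list, and those most like the members in Pearson correlation of log2(CPM + 1) means over labels, among genes with a mean of at least 20 CPM in some label.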

Additional observations from a re-analysis of the deposited data

Results flagged for a closer look

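Among 39 groups of 4 to 10 sums, 4 held a sum far from the others by Dixon's test at the 95% level, where chance would give 1.95. Ear2 in margin Mon_Fn1 stood at 401 CPM in mouse 36 (9 UMIs) and at 0 to 118 CPM in the others. Ear2 in relapse-free Mon_Ace stood at 1137 CPM in mouse 29 (8 UMIs) and at 129 to 472 in the others. Chil3 in margin Mon_Ace had no UMI in mouse 26, whose depth allows up to 647 CPM, against 712 to 992 CPM in the others. Chil3 in primary tumor Mon_Ace stood at 1891 CPM in mouse 8 (26 UMIs) and at 42.3 to 88.3 in the others. In the Mac_Cd81 and Mac_Isg20 sums, primary tumor mouse 8 carried a different batch label from mice 9, 10 and 38. Its immune wells had a median of 1972 UMIs, against at least 3388 in these mice. Chil3 in Mac_Isg20 stood at 806 CPM in mouse 8, with no UMI in these mice. In Mac_Cd81 mouse 8, at 36.8 CPM, lay within their range of 2.98 to 51.2. The part of batch or depth was not tested.

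Outside the immune labels, Fabp4 was found in the wells labelled Outlier at 124 CPM (42 UMIs in 165 wells) and in wells of 500 or more UMIs without an annotation at 74.4 CPM (126 UMIs in 128 wells). In wells labelled Tumor it stood at 63.7 CPM (33 UMIs in 94 wells), and erythrocyte wells held 2 UMIs. The wells left empty had 0 Fabp4 UMIs, but their 8490 UMIs in all are too few to set against these levels.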

How the results depend on the processing

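Inside Mac_Cd9, 0 members were called under most alternatives. Between metastases and distal tissue, sums of at least 10 cells left 1 metastasis sum, that of mouse 31 with the highest Marco level, whose spread was assumed to be that of the other groups, and called 4 genes and 1 member (Marco, 2.89), and leaving out single mice called 0 to 2 genes and 0 to 1 members (Fabp1, -2.47, without metastasis mouse 30). No filter on low counts called 2 genes, and with batch as a term Marco reversed to -0.10, a value that rests on metastasis mouse 28 alone. Between relapse-free and control lungs, no filter called 0 genes, and leaving out single mice 0 to 1. Between distal tissue and controls, DESeq2 called 14 genes, no filter 29 and wells of at least 1000 UMIs 1, and leaving out single mice 2 to 9.

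For all macrophages between metastases and distal tissue, no filter called 388 genes, and leaving out single mice 173 to 358, the latter without distal mouse 17, with 3 to 7 members. DESeq2 called 3 members, with Car4 (-3.32) and Plet1 (-2.72) not called. Without the Mac_Cd9 wells 0 genes and 0 members were called, and Chil3 (2.72) and Ear2 (2.75) reversed, in a fit with 2 distal sums. Fabp4 reversed with DESeq2 (-0.49) and with batch as a term (-0.0138), and ranged from -0.40 to 0.53 when single mice were left out. Marco reversed without a filter (0.0482) and ranged from -0.94 to 0.42. Plet1 lost its call in 9 of 18 such fits, at -2.11 to -1.66. Between core and margin, DESeq2 called 45 genes, no filter 31, sums of at least 10 cells 10 and the fit without Mac_Cd9 0, and the members called were 2, 3, 0 and 0. With batch as a term 1 member was called, and the number of all genes called in that fit is not given here.

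The replicate block (the mouse) gave 131 genes and 2 members for metastases against distal tissue and 0 genes for core against margin, in smaller sets of genes and mice. In Mon_Fn1 between core and margin it moved Chil3 to 0.0333. It changed no other call.

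In Mon_Fn1 Pre-MET against control, sums of at least 10 cells called 1 gene and a fit of the compared groups only 11, and in Mon_Ace that fit called 6, with 0 members in each. In Mon_Fn1 between core and margin, Chil3 was 0.17 with DESeq2 and Ear2 0.36 in wells of at least 1000 UMIs. In Mon_Ace Pre-MET against control, Ear2 was -0.0896 in such wells and -0.13 to 0.83 without single mice, and Fabp4 -0.18 to 0.32. The share of Mac_Cd9 wells with 3 or more of 7 members was 45.8% with all UMIs. The 28 alternative values of mean levels moved by less than 1 SD. The cause of these changes was not tested. Fits of the compared groups only, the unthinned wells, and leaving out mice of groups with more than 5 sums were chosen after seeing the data. A batch term for comparisons with controls was not run, since the control plates were the only plates of their batch.

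Most Mac_Cd9 sums outside controls and relapse-free lungs held 7 to 15 wells, and the floor of 3 UMIs in the shallowest stood at 532 CPM, so a member at 0 there was below detection at that depth.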

Other observations

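In the 13 mice with Mon_Fn1 sums of both distal tissue and metastasis, Chil3 levels of the 2 tissues had a Pearson r of 0.870 and a Spearman rho of 0.857 across mice. Without mice 23 and 37, the farthest from the median, r was 0.911. In the 9 mice whose sums of both tissues carried the same batch label, r was 0.917. After each level was centred on the mean of its batch label (3 batches), r was 0.840 and rho 0.867. Within the largest batch (5 mice) r was 0.753. For Ear2, r was 0.491 and rho 0.488 over the 13 mice, r was 0.754 without mice 23 and 24, and after centring on the batch r was 0.118. These 2 relations were chosen after their values were seen, so they are given as a description with no p.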
